A study of Mus musculus with 8 samples.

Results

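The Kupffer cell marker genes are 10 genes by which the resident macrophages of the liver are recognised: Clec4f, Timd4, Vsig4, Marco, Cd163, Cd5l, C1qa, C1qb, C1qc and Csf1r. They were taken by symbol from the 34465 genes of the deposited table, and all 10 were found, each above 0 in every library. The table holds RNA sequencing of whole liver in 8 libraries, 2 in each of 4 groups, from 129S4/SvJae/FVB mice aged 3 months. All animals, controls included, carried floxed alleles of b-PDGFR (b-PDGFR fl/fl), which is the gene Pdgfrb for the platelet-derived growth factor receptor beta. The groups were Cre-positive livers (GFAP-Cre pos) taken 72 h after partial hepatectomy, Cre-negative livers (GFAP-Cre neg) taken at the same time, Cre-positive livers after a sham operation and Cre-negative livers after a sham operation. The GFAP promoter drives the Cre, and the submitters describe the deletion as specific to hepatic stellate cells, so Kupffer cells are not its stated target. Nothing in the labels shows that the duplicates are separate animals, so p-values measure the spread between these libraries, which may be technical.

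Kupffer cells line the sinusoids of the liver, where they take up microbes, damaged red cells and dying cells from portal blood. They depend on signals through the colony-stimulating factor 1 receptor and keep receptors and secreted proteins that monocytes newly arrived from blood lack. After partial hepatectomy they are known as a source of cytokines that act on hepatocytes. In whole-liver RNA, fewer Kupffer cells and less RNA of these genes per cell cannot be told apart.

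The promoters of C1qb, C1qc and Cd5l, genes that were highest in the same libraries, are shown with that of Cd163, which was not. Each run covers 250 bases before to 50 bases after a start of the gene. The runs are from RefSeq on GRCm38.p6, which is not the build named for the deposited values. For C1qc and Cd163 that start lies inside the gene, whose first base is at 136892936 for C1qc and 124304636 for Cd163. Of the 10 genes, 8 were matched to a promoter. Capitals mark GAGGAA, the core bound by the macrophage transcription factor PU.1, or its reverse complement TTCCTC. The C1qb run is chr4:136886151-136886450 and the C1qc run is chr4:136892865-136893164, both on the minus strand. The Cd5l run is chr3:87357631-87357930 and the Cd163 run is chr6:124304401-124304700, both on the plus strand.
C1qb: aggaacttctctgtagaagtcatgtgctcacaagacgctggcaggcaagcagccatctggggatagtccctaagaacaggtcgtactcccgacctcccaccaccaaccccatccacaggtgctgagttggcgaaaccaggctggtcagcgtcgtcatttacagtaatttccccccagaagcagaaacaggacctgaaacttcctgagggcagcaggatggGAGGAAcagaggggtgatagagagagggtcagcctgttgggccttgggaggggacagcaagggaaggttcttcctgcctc
C1qc: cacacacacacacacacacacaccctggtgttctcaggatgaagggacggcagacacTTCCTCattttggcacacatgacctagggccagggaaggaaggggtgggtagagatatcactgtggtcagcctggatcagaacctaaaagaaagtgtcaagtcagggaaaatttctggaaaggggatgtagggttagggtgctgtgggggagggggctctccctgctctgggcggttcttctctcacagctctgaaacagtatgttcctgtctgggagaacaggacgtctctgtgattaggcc
Cd5l: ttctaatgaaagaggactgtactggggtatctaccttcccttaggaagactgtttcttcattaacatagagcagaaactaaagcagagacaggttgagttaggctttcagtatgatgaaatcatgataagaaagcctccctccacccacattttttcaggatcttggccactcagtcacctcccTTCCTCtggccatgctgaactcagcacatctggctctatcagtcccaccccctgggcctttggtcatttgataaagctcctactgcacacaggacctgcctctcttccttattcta
Cd163: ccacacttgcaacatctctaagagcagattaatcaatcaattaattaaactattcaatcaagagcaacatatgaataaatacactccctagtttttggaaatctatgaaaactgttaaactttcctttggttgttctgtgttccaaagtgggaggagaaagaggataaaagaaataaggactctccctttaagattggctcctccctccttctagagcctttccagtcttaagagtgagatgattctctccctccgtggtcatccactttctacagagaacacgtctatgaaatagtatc

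GAGGAA was found in 5 of the 8 promoters, those of Cd5l, Vsig4, Marco, C1qb and C1qc, and in 28.3% of all 32851 promoters of the table. The promoters shown do not stand for all 8. Clec4f was also highest in both Cre-positive hepatectomy libraries and had 0 matches. Vsig4 and Marco were not, and had 2 and 1. Timd4, like Cd163, was not and had 0. TGCTGA, a half-site of MAF factors, was found in 5 of the 8, those of Clec4f, Cd5l, Vsig4, Timd4 and C1qb, and in 19.5% of all. TATAAA and the E-box CACGTG were found in 0 of the 8, against 13.6% and 7.15% of all. Each motif was searched on both strands, and no match of one motif overlapped a match of another in these promoters. A match describes letters in this window and is not evidence of binding. C1qb, C1qc and C1qa lie side by side on chromosome 4, between positions 136880126 and 136898844 of GRCm38.p6.

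Values are a normalized signal whose depth is unknown. Summed over all genes it was 1.04e+07 and 1.16e+07 in the Cre-positive and 8.62e+06 and 9.40e+06 in the Cre-negative libraries after hepatectomy. In the sham libraries it was 1.01e+07 to 1.03e+07. The 10 highest genes held 30.0% of the signal in Cre-positive hepatectomy replicate 2, against 14.3% to 18.45% in the other libraries. Replicates differed by a median factor of 1.60 in Cre-positive hepatectomy, 1.38 in Cre-negative hepatectomy, 1.15 in Cre-positive sham and 1.16 in Cre-negative sham livers. Cre-positive hepatectomy replicate 2 stood apart by base composition: relative to the sham mean, its genes under 40% GC had a median log2 difference of -1.49 and its genes of 55% GC or more one of 0.66. For the GC-rich genes the difference was -0.11 in Cre-positive hepatectomy replicate 1, and 0.61 and 0.40 in the Cre-negative hepatectomy libraries. Of 10 hepatocyte genes, Alb and Trf were listed at 0 in at least 1 library, as a failed estimate can be. For Trf this was Cre-positive hepatectomy replicate 1. Alb was at 0 in every Cre-positive and every sham library. It had signal only among the Cre-negative hepatectomy libraries, with a log2 fold change of 8.90 for hepatectomy in Cre-negative livers. Pdgfrb was at 63.1 and 99.9 in the Cre-positive and 123 and 70.5 in the Cre-negative libraries after hepatectomy, against 59.4 and 46.0 in the Cre-positive and 49.8 and 63.3 in the Cre-negative libraries after sham operation. The genotypes overlapped, with a log2 difference of Cre-positive minus Cre-negative livers of -0.23 (SE 0.39) after hepatectomy and -0.10 (SE 0.39) in sham, so these whole-liver values do not check the labelled deletion.

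After hepatectomy most Kupffer genes were higher in Cre-positive than in Cre-negative livers. Clec4f, Cd5l, C1qa, C1qb, C1qc, Csf1r and Timd4 had both Cre-positive libraries above both Cre-negative ones, with fitted folds between 1.43 for C1qa and 3.09 for Cd5l. Marco had the higher and Cd163 the lower group mean after hepatectomy in either genotype. In sham livers the genotypes overlapped for all 10 genes. None of the 10 passed the genome-wide threshold in any comparison of the fit of all libraries.

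**Figure D1:**
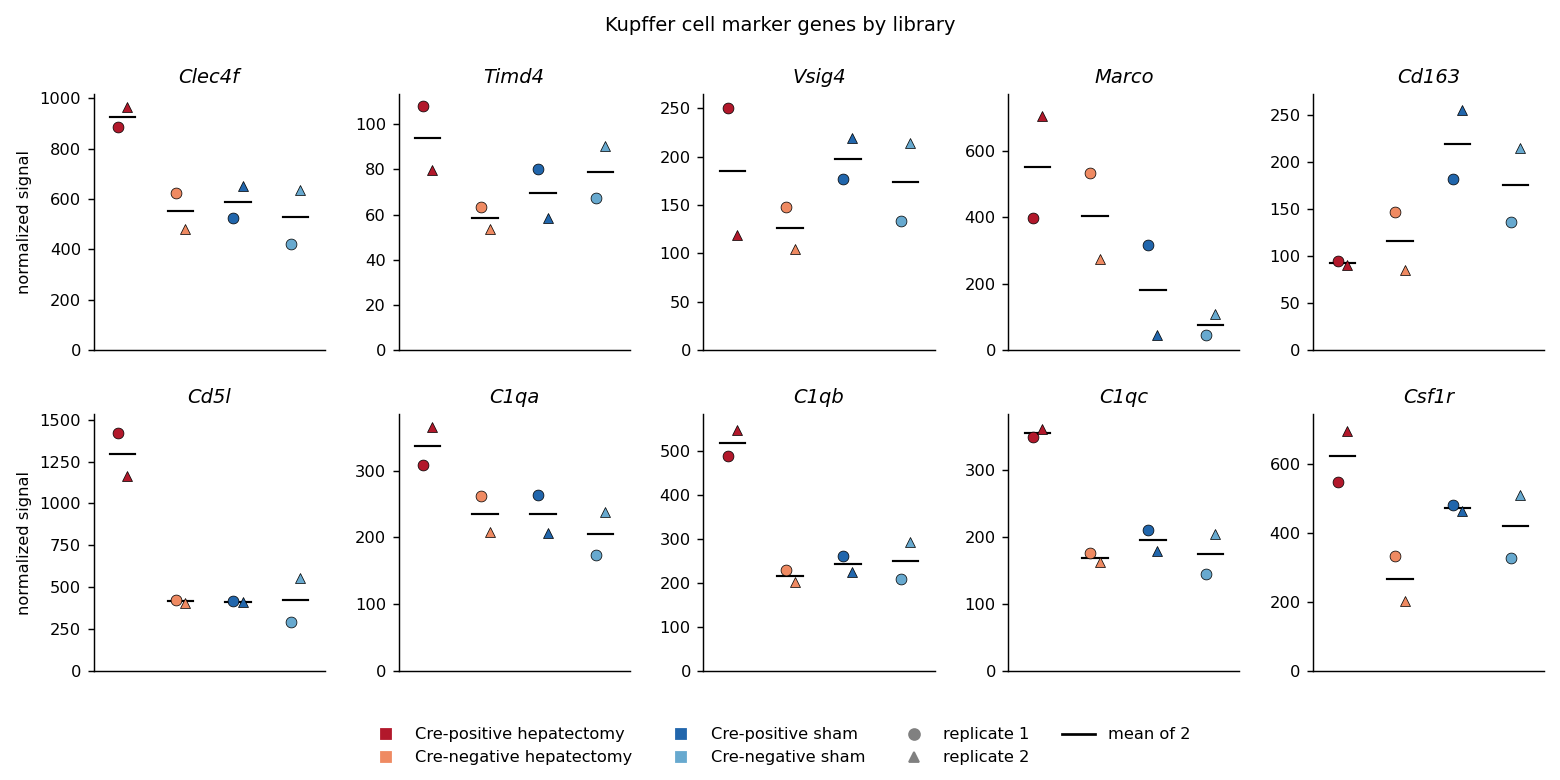
Normalized signal (vertical axis, linear from 0) of each of the 10 genes in the 8 libraries, by group, with circles for replicate 1, triangles for replicate 2 and a bar for the mean of the 2. Both Cre-positive hepatectomy libraries are the highest of the 8 for Clec4f, Cd5l, C1qa, C1qb, C1qc and Csf1r, while Marco is high in all 4 hepatectomy libraries and in 1 Cre-positive sham library.

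Counts of genes with no overlap between groups were read against all 16443 genes tested. Between hepatectomy livers, 7 of the 10 genes were higher in Cre-positive ones without overlap, where 14.2% of all genes were, and 0 were lower, where 26.3% of all genes were. Among Cre-positive livers, 7 (Clec4f, Cd5l, Marco, C1qa, C1qb, C1qc and Csf1r) were higher after hepatectomy than in sham, where 23.9% of all genes were, and 1, Cd163, was lower, where 19.5% were. Among Cre-negative livers 1, Marco, was higher after hepatectomy and 1, Timd4, lower, where 39.7% and 23.3% of all genes were. Over both genotypes, 0 of the 10 had all 4 hepatectomy libraries above or all 4 below the 4 sham libraries, where 11.2% and 6.2% of all genes did. For 6 genes, the 7 above without Marco, the Cre-positive hepatectomy libraries lay above all other 6 libraries, as for 6.44% of all genes.

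The test was limma on log2(signal + 1), with Benjamini-Hochberg adjustment over all genes, and it called 0 of the 10 at an adjusted p under 0.05 in each of 6 comparisons. For genotype after hepatectomy, 0.0182% of all genes were called, and 5 of the 10 had an unadjusted p under 0.05, against 18.3% of all genes. For hepatectomy in Cre-positive livers 0.943% were called, and 5 of the 10 had such a p, against 13.5%. In Cre-negative livers 1.11% were called, and it was 1 of the 10, against 21.3%. Averaged over genotypes 4.49% were called, and it was 4 of the 10, against 23.8%. For the difference of the hepatectomy responses between genotypes 0.0122% were called, and it was 3 of the 10, against 8.09%. For genotype in sham 0.00608% were called, and it was 0 of the 10, against 0.888%.

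The median log2 fold change of the 10 genes for genotype after hepatectomy was 0.71, against -0.23 for all genes, with 9 of 10 positive, against 37% of all genes. For the difference of responses it was 0.71, against -0.20 for all genes. For hepatectomy it was 0.59 in Cre-positive livers, against 0.02 for all genes, and -0.12 in Cre-negative livers, against 0.21 for all genes. Averaged over genotypes it was 0.36, against 0.12, and for genotype in sham 0.19, against -0.03. These comparisons share libraries, so the medians are not independent of each other.

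**Figure D2:**
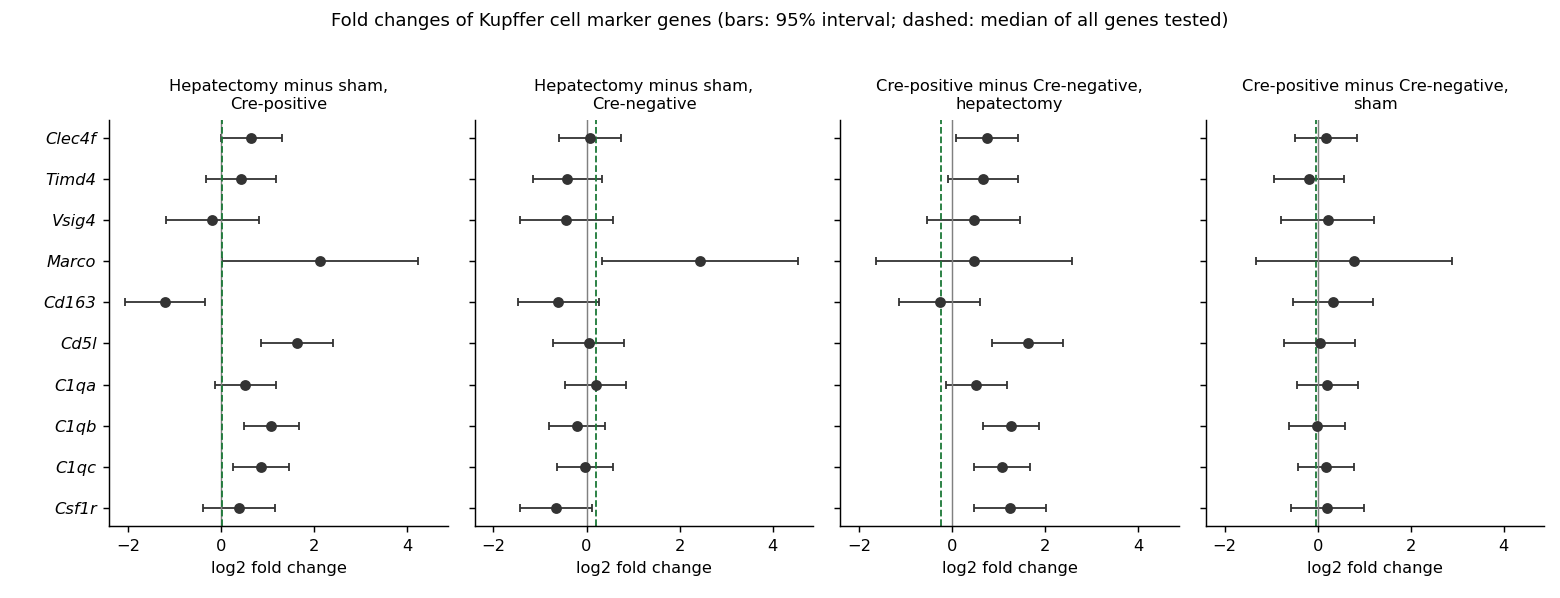
Log2 fold change (horizontal axis) of each gene with its 95% interval from limma, for hepatectomy minus sham in each genotype and Cre-positive minus Cre-negative in each operation, with a dashed line at the median of all genes tested. In the third panel 9 of the 10 points lie above 0, Cd163 at -0.27 being the exception, and in the fourth every interval spans 0.

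Clec4f encodes a lectin that in mouse marks Kupffer cells among liver cells. It was at 886 and 965 in the Cre-positive and 623 and 481 in the Cre-negative libraries after hepatectomy, against 526 and 654 in the Cre-positive and 422 and 635 in the Cre-negative libraries after sham operation. The Cre-positive hepatectomy livers were the highest, at 925 ± 56.2 (SD, n = 2), and the other 3 groups had means between 528 and 589.9 with overlapping replicates. The log2 fold change for genotype after hepatectomy was 0.75 (SE 0.28, limma adjusted p = 0.236). For hepatectomy it was 0.66 (SE 0.28, limma adjusted p = 0.375) in Cre-positive livers and 0.08 (95% interval -0.58 to 0.75) in Cre-negative livers.

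Timd4 encodes TIM-4, a receptor for phosphatidylserine on dying cells that long-lived resident macrophages carry. It was at 108 and 79.6 in the Cre-positive and 63.3 and 53.8 in the Cre-negative libraries after hepatectomy, against 80.2 and 58.6 in the Cre-positive and 67.2 and 90.3 in the Cre-negative libraries after sham operation. Its highest library was 2.01 times its lowest, the narrowest range of the 10 genes. The Cre-negative hepatectomy livers had the lowest mean, at 58.5 ± 6.73 against 78.8 ± 16.4 in Cre-negative sham livers (SD, n = 2), a log2 fold change of -0.41 (95% interval -1.16 to 0.34). For genotype after hepatectomy it was 0.66 (SE 0.32, limma adjusted p = 0.315).

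Vsig4 encodes CRIg, a complement receptor that binds fragments of C3 and clears bacteria from blood. It was at 251 and 119 in the Cre-positive and 148 and 105 in the Cre-negative libraries after hepatectomy, against 177 and 219 in the Cre-positive and 134 and 214 in the Cre-negative libraries after sham operation. Hepatectomy and sham overlapped in both genotypes, as did the genotypes in both operations, and the Cre-positive hepatectomy replicates differed by a factor of 2.11. The log2 fold change for hepatectomy was -0.19 (95% interval -1.19 to 0.81) in Cre-positive and -0.44 (95% interval -1.44 to 0.56) in Cre-negative livers. Without Cre-positive hepatectomy replicate 2 the value in Cre-positive livers was 0.35, of the opposite sign.

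Marco encodes a scavenger receptor with a collagen-like domain that binds bacteria and particles. It was at 397 and 707 in the Cre-positive and 534 and 273 in the Cre-negative libraries after hepatectomy, against 317 and 45.2 in the Cre-positive and 44.6 and 108 in the Cre-negative libraries after sham operation. It had the widest range of the 10 genes, a factor of 15.9, and 3 of the 4 sham libraries lay below every hepatectomy library. The exception was Cre-positive sham replicate 1, at 7.01 times its own replicate and above 1 of the Cre-negative hepatectomy libraries. The log2 fold change for hepatectomy was 2.13 (SE 0.89, limma adjusted p = 0.364) in Cre-positive and 2.44 (SE 0.89, limma adjusted p = 0.188) in Cre-negative livers. Averaged over genotypes it was 2.29 (SE 0.63, limma adjusted p = 0.0956) and did not pass. For genotype in sham it was 0.78 (95% interval -1.32 to 2.88), and -0.61 without Cre-positive sham replicate 1.

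Cd163 encodes the scavenger receptor for complexes of haemoglobin and haptoglobin. It was at 95.3 and 91.2 in the Cre-positive and 148 and 85.9 in the Cre-negative libraries after hepatectomy, against 182 and 256 in the Cre-positive and 137 and 216 in the Cre-negative libraries after sham operation. In Cre-positive livers it was lower after hepatectomy without overlap, at 93.3 ± 2.92 against 219 ± 52.5 in sham (SD, n = 2). In Cre-negative livers the groups overlapped, at 117 ± 43.7 after hepatectomy against 176 ± 55.8 in sham (SD, n = 2). The log2 fold change was -1.20 (SE 0.37, limma adjusted p = 0.224) in Cre-positive and -0.61 (SE 0.37, limma adjusted p = 0.374) in Cre-negative livers, and -0.90 (SE 0.26, limma adjusted p = 0.105) averaged over genotypes. With the GC trend removed from each library the averaged value was -1.03 and passed, with a limma adjusted p of 0.0494, where 1090 genes were called in all.

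Cd5l encodes a protein that macrophages secrete into blood, where it circulates with IgM. It was at 1420.0 and 1166 in the Cre-positive and 426 and 405 in the Cre-negative libraries after hepatectomy, against 417 and 411 in the Cre-positive and 289 and 556 in the Cre-negative libraries after sham operation. Both Cre-positive hepatectomy libraries lay well above the others, the highest of which was Cre-negative sham replicate 2. The mean was 1293 ± 179 in Cre-positive and 415 ± 14.4 in Cre-negative hepatectomy livers (SD, n = 2), a log2 fold change of 1.63 (SE 0.33, limma adjusted p = 0.12) with a 95% interval of 0.86 to 2.39. Of all genes tested, 98.8% had a lower value in that comparison. For hepatectomy it was 1.63 (SE 0.33, limma adjusted p = 0.0849) in Cre-positive livers and 0.05 (95% interval -0.72 to 0.81) in Cre-negative livers. The difference of the responses was 1.58 (SE 0.46, limma adjusted p = 0.542).

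C1qa, C1qb and C1qc encode the 3 chains of C1q, which binds antibody and dying cells and starts the classical complement pathway, and macrophages are a main source of it. C1qb was at 488 and 549.7 in the Cre-positive and 229 and 202 in the Cre-negative libraries after hepatectomy, against 262 and 226 in the Cre-positive and 209.5 and 292 in the Cre-negative libraries after sham operation. C1qc was at 350.4 and 362 in the Cre-positive and 175 and 163 in the Cre-negative libraries after hepatectomy, against 211 and 179 in the Cre-positive and 145 and 205 in the Cre-negative libraries after sham operation. C1qa was at 309 and 366 in the Cre-positive and 262 and 208 in the Cre-negative libraries after hepatectomy, against 264 and 207 in the Cre-positive and 173 and 238 in the Cre-negative libraries after sham operation. All 3 were highest in the Cre-positive hepatectomy libraries. In Cre-negative livers the hepatectomy and sham libraries overlapped for each chain.

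The fitted values differed in size between the chains, and that difference was not tested. The log2 fold change for genotype after hepatectomy was 1.26 (SE 0.26, limma adjusted p = 0.124) for C1qb, 1.07 (SE 0.26, limma adjusted p = 0.135) for C1qc and 0.52 (SE 0.28, limma adjusted p = 0.353) for C1qa. For hepatectomy in Cre-positive livers it was 1.09 (SE 0.26, limma adjusted p = 0.13) for C1qb, 0.87 (SE 0.26, limma adjusted p = 0.209) for C1qc and 0.52 (SE 0.28, limma adjusted p = 0.455) for C1qa. In Cre-negative livers the 95% intervals all spanned 0, with values of -0.20 for C1qb, -0.03 for C1qc and 0.20 for C1qa. The ratio of a pair of chains was taken after their values were seen, so its order restates them. The C1qb signal divided by the C1qa signal was 1.58 and 1.504 in the Cre-positive and 0.874 and 0.971 in the Cre-negative libraries after hepatectomy, against 0.992 and 1.09 in the Cre-positive and 1.21 and 1.23 in the Cre-negative libraries after sham operation. Both Cre-positive hepatectomy libraries lay above the other 6, and both Cre-negative hepatectomy libraries lay lowest. The ratio of C1qb to C1qc varied less, between 1.24 and 1.52.

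Csf1r encodes the receptor for CSF1 and IL-34, on which macrophage survival depends. It was at 548 and 695 in the Cre-positive and 332 and 203 in the Cre-negative libraries after hepatectomy, against 481 and 463 in the Cre-positive and 328 and 511 in the Cre-negative libraries after sham operation. The Cre-positive hepatectomy libraries were the highest of the 8 and Cre-negative hepatectomy replicate 2 was the lowest. The log2 fold change for genotype after hepatectomy was 1.25 (SE 0.33, limma adjusted p = 0.154). For hepatectomy it was 0.38 (95% interval -0.40 to 1.17) in Cre-positive and -0.66 (95% interval -1.44 to 0.13) in Cre-negative livers, and the difference of the responses was 1.04 (SE 0.47, limma adjusted p = 0.637).

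The isoform table bears on the Csf1r level. A gene's signal is the sum over its isoforms, and Csf1r has 4 of them in the table. The isoform Csf1r-001 held 95.6% and 86.2% in the Cre-positive and 1.06% and 6.98% in the Cre-negative libraries after hepatectomy, against 89.8% and 88.03% in the Cre-positive and 89.7% and 89.3% in the Cre-negative libraries after sham operation. The isoform Csf1r-203 held 4.24% and 10.6% in the Cre-positive and 76.4% and 74.8% in the Cre-negative libraries after hepatectomy, against 9.96% and 10.4% in the Cre-positive and 10.2% and 9.39% in the Cre-negative libraries after sham operation. Csf1r-201 held 22.5% and 18.2% in the Cre-negative hepatectomy libraries, the other 6 having at most 3.16%. In both Cre-negative hepatectomy libraries the Csf1r signal therefore rests on other isoforms than in the other 6.

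Such a shift was looked for in 10015 genes, and 366 (3.65%) had it. These had the same most used isoform in all other 6 libraries and another in both Cre-negative hepatectomy libraries. By the same rule for the Cre-positive hepatectomy libraries against the other 6 there were 78 genes. The rule was set after the Csf1r values were seen. Whether the shift comes from the transcripts or from how reads were assigned to isoforms was not tested.

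**Figure D3:**
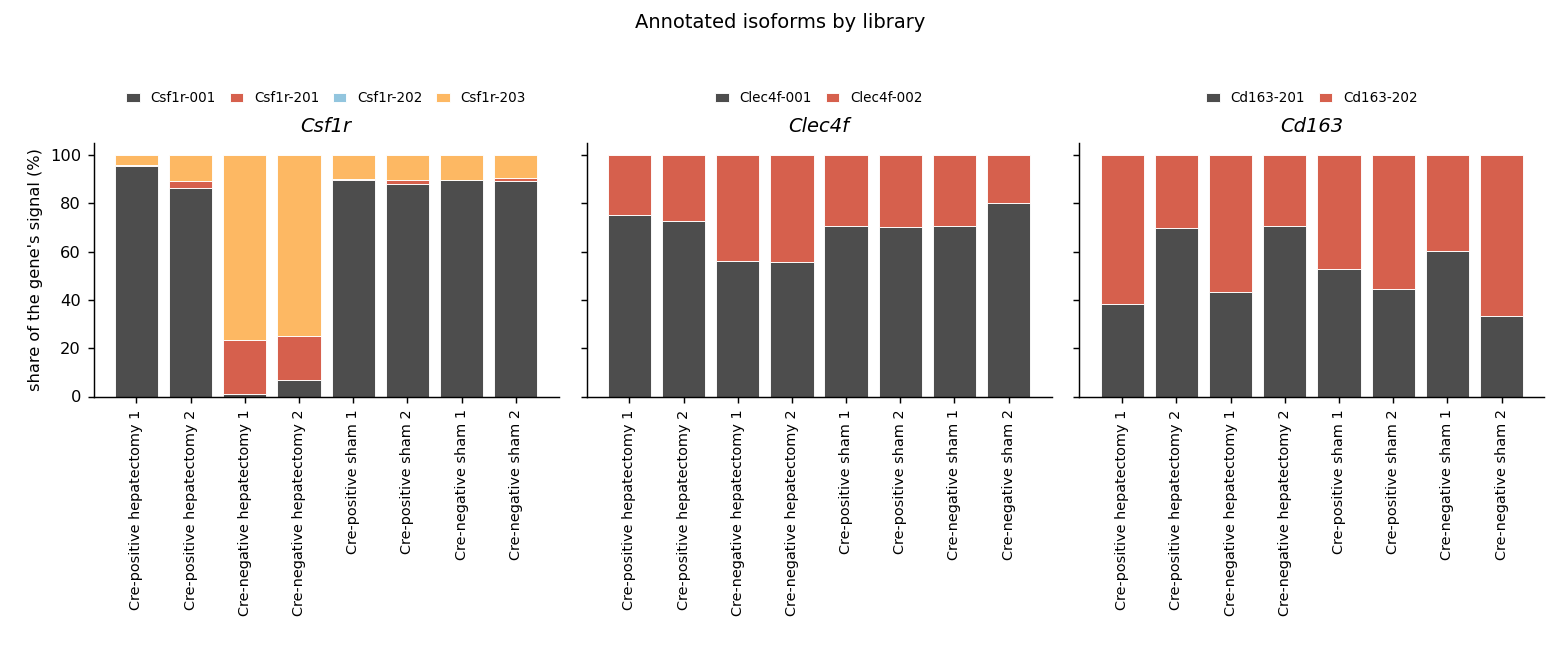
Share of each gene's signal (vertical axis, percent) held by its annotated isoforms in each library, for Csf1r, Clec4f and Cd163. Csf1r-001 holds at least 86.2% in 6 libraries and at most 6.98% in the Cre-negative hepatectomy libraries, Clec4f-002 has its largest shares in the same 2 libraries, and Cd163 shows no split by group.

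Clec4f has 2 isoforms in the table. The isoform Clec4f-002 held 24.9% and 27.2% in the Cre-positive and 44.0% and 44.2% in the Cre-negative libraries after hepatectomy, against 29.5% and 29.6% in the Cre-positive and 29.3% and 19.7% in the Cre-negative libraries after sham operation. The Cre-negative hepatectomy libraries were again apart from the other 6. The signal of Clec4f-001 alone was 665 and 702 in the Cre-positive and 349 and 268 in the Cre-negative hepatectomy libraries. One of the 2 Cd163 isoforms held between 33.3% and 70.8% and did not follow the groups. For Vsig4 and C1qc a single isoform held at least 97.5% in every library, and Cd5l, Timd4, Marco, C1qa and C1qb have 1 isoform each in the table.

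Base composition moved with some of these values. Timd4, Vsig4 and Cd163, at 44.4%, 44.55% and 47.9% GC, have the lowest GC content of the 10 genes, and each was lower in Cre-positive hepatectomy replicate 2 than in replicate 1. The other 7 lie between 51.5% and 59.5% GC, and all of them except Cd5l were higher in replicate 2. With the GC trend removed from each library, the median log2 fold change of the 10 genes for genotype after hepatectomy was 0.96. For hepatectomy it was -0.55 in Cre-negative livers and 0.01 averaged over genotypes.

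Leaving out 1 of the Cre-positive hepatectomy libraries altered some calls. Without replicate 1 of that group, the log2 fold change of C1qb for genotype after hepatectomy was 1.35. For hepatectomy in Cre-positive livers it was 1.49 for Cd5l and 1.17 for C1qb. In that fit the group is a single library assumed to vary like the others, so calls made in it are not read as results about these genes.

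Other macrophage genes were counted from lists chosen beside the 10. Of 14 further Kupffer cell genes, such as Folr2, Slc40a1 and Spic, 8 of 14 tested had a positive log2 fold change for genotype after hepatectomy (median 0.45, 0 called by limma and 4 at an unadjusted p under 0.05). Of all genes tested, 37% were positive in that comparison, with a median of -0.23, and 18.3% had an unadjusted p under 0.05. The counts of the lists that follow are to be read against these shares. Nr1h3, the nuclear receptor LXR-alpha, was at 976 and 1553 in the Cre-positive and 1019 and 1059 in the Cre-negative libraries after hepatectomy, against 958 and 1075 in the Cre-positive and 933 and 1051 in the Cre-negative libraries after sham operation. Fcna, the lectin ficolin A, was at 298 and 735 in the Cre-positive and 657 and 403 in the Cre-negative libraries after hepatectomy, against 490.1 and 459 in the Cre-positive and 398 and 510.1 in the Cre-negative libraries after sham operation. Unlike Clec4f and Cd5l, both had Cre-positive hepatectomy libraries on either side of the Cre-negative hepatectomy libraries.

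Of the general macrophage genes, 17 of 22 tested were positive for genotype after hepatectomy (median 0.66, 0 called by limma and 6 at an unadjusted p under 0.05). For the difference of the responses 20 of 22 were positive (median 0.77, 0 called by limma and 4 at an unadjusted p under 0.05), against 39.7% positive and 8.09% at such a p among all genes. Lgmn, the lysosomal protease legumain, was at 1102 and 1362 in the Cre-positive and 682 and 736 in the Cre-negative libraries after hepatectomy, against 686 and 713 in the Cre-positive and 457 and 748 in the Cre-negative libraries after sham operation. Both Cre-positive hepatectomy libraries were the highest of the 8, as for C1qb and Cd5l. Mrc1, the mannose receptor, which sinusoidal endothelial cells carry too, was at 453 and 80.1 in the Cre-positive and 269 and 156 in the Cre-negative libraries after hepatectomy, against 652 and 617 in the Cre-positive and 614 and 774 in the Cre-negative libraries after sham operation. Every hepatectomy library lay below every sham library, with an averaged log2 fold change of -1.74 (SE 0.51, limma adjusted p = 0.108). Of the macrophage transcription factors, 6 of 12 tested were positive for genotype after hepatectomy (median -0.13, 0 called by limma and 3 at an unadjusted p under 0.05). One of them, Cebpa, which hepatocytes express too, was at 349.7 and 215 in the Cre-positive and 107 and 180.3 in the Cre-negative hepatectomy libraries.

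**Figure D4:**
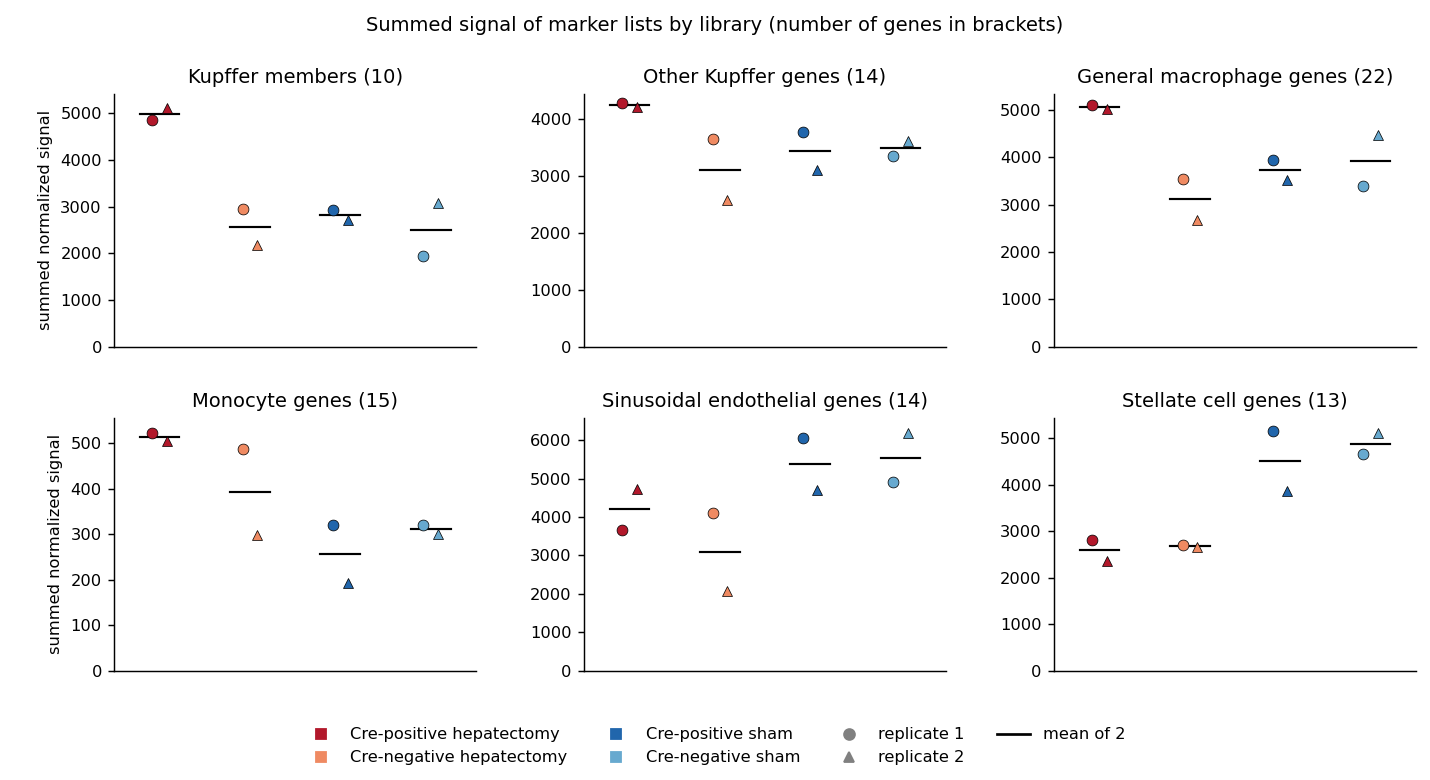
Summed normalized signal (vertical axis, linear from 0) of the 10 genes and of 5 other marker lists in each library, with circles for replicate 1, triangles for replicate 2 and a bar for the mean. The sums of the 10 genes, the other Kupffer cell genes and the general macrophage genes are highest in both Cre-positive hepatectomy libraries, and stellate cell sums are lower in all 4 hepatectomy libraries than in the sham libraries. For the other Kupffer cell genes this order rests on Nr1h3 and would not hold without it. Nr1h3 held 1553 of 4208 in Cre-positive hepatectomy replicate 2, against 958 of 3770 in Cre-positive sham replicate 1.

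Markers of other cell types are given beside these values, and their part in the results was not tested. The summed signal of the 10 genes was 4853 to 5100.2 in the Cre-positive and 2181 to 2941 in the Cre-negative libraries after hepatectomy, against 2720.3 to 2918 in the Cre-positive and 1949.6 to 3066 in the Cre-negative libraries after sham operation. The sum of 15 monocyte genes was 504 to 523 in the Cre-positive and 297 to 488 in the Cre-negative libraries after hepatectomy, against 194 to 319.6 in the Cre-positive and 301 to 319.9 in the Cre-negative libraries after sham operation, and none of them was listed at 0. The Cre-positive hepatectomy libraries were the highest in both sums. Of the monocyte genes tested 9 of 13 were positive for genotype after hepatectomy (median 0.32, 0 called by limma and 1 at an unadjusted p under 0.05). Plac8, expressed in monocytes from blood, was at 289.6 and 178 in the Cre-positive and 207 and 133 in the Cre-negative libraries after hepatectomy, against 118 and 74.3 in the Cre-positive and 104 and 134 in the Cre-negative libraries after sham operation. Cd44, an adhesion receptor, was at 76.3 and 63.1 in the Cre-positive and 74.3 and 41.2 in the Cre-negative libraries after hepatectomy, against 57.2 and 26.3 in the Cre-positive and 56.9 and 50.3 in the Cre-negative libraries after sham operation. Neither separated the genotypes after hepatectomy.

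Neutrophil genes were in another order than the Kupffer genes. Their sum was 507 to 532 in the Cre-positive and 291 to 616 in the Cre-negative libraries after hepatectomy, against 152 to 671 in the Cre-positive and 544 to 841 in the Cre-negative libraries after sham operation, with Ly6g, Camp and Mpo listed at 0 in at least 1 library. For genotype after hepatectomy 7 of 12 tested were positive (median 0.21, 0 called by limma and 0 at an unadjusted p under 0.05), and S100a8 and S100a9, the most abundant, had log2 fold changes of 0.46 and 0.22. Dendritic cell and antigen presentation genes had a median of 0.10, with 4 of 8 tested positive (0 called by limma and 6 at an unadjusted p under 0.05) and Cd209a listed at 0 in at least 1 library. Cd74, the invariant chain, was at 2268 and 1119.9 in the Cre-positive and 507 and 528 in the Cre-negative libraries after hepatectomy, against 1347 and 771 in the Cre-positive and 1324 and 1779.8 in the Cre-negative libraries after sham operation. H2-Eb1, an MHC class II chain, was at 401 and 367 in the Cre-positive and 139 and 197 in the Cre-negative libraries after hepatectomy, against 438 and 233 in the Cre-positive and 493 and 592 in the Cre-negative libraries after sham operation. Both were lowest in the Cre-negative hepatectomy libraries.

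Sinusoidal endothelial cells are the cells on which Kupffer cells sit, and 3 of 14 of their genes fell after hepatectomy averaged over genotypes. In that comparison 4.49% of all genes were called in either direction, 139 of 16443 down and 599 up. The 3 were Oit3 at -1.30 (SE 0.21, limma adjusted p = 0.022), Fcgr2b, an inhibitory Fc receptor, at -1.03 (SE 0.21, limma adjusted p = 0.0407) and Kdr, the receptor VEGFR2, at -1.13 (SE 0.23, limma adjusted p = 0.0413). For the averaged value 0 of 14 were positive, against 57.7% of all genes. In Cre-positive livers alone it was 4 of 14, against 51.6%, and in Cre-negative livers 0 of 14, against 61%. Their sum was 3672 to 4739 in the Cre-positive and 2086 to 4116 in the Cre-negative libraries after hepatectomy, against 4693 to 6065 in the Cre-positive and 4905 to 6177 in the Cre-negative libraries after sham operation, and none was listed at 0. Hepatectomy and sham sums overlapped in Cre-positive livers. For genotype after hepatectomy 12 of 14 were positive (median 0.72, 0 called by limma and 4 at an unadjusted p under 0.05). That median is close to the 0.71 of the Kupffer genes.

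The stellate cell genes, from the stated target of the Cre, had a sum of 2359 to 2820.5 in the Cre-positive and 2669 to 2705 in the Cre-negative libraries after hepatectomy, against 3874 to 5160.4 in the Cre-positive and 4651 to 5113 in the Cre-negative libraries after sham operation, and none was listed at 0. Of them 4 of 13 were positive for genotype after hepatectomy (median -0.08, 0 called by limma and 0 at an unadjusted p under 0.05). Averaged over genotypes, 1 of 13 fell after hepatectomy, the collectin Colec10, at -2.31 (SE 0.44, limma adjusted p = 0.0343), where 139 of all 16443 genes were called as lower. Erythroid genes, whose products Kupffer cells clear, had a sum of 10908 to 54960.0 in the Cre-positive and 20562 to 31599 in the Cre-negative libraries after hepatectomy, against 4805 to 8979 in the Cre-positive and 8247 to 8509 in the Cre-negative libraries after sham operation. Averaged over genotypes, 2 of 8 rose after hepatectomy, in the comparison with 599 of all 16443 genes called as higher: Slc4a1, the band 3 protein, at 3.45 (SE 0.64, limma adjusted p = 0.0331) and Hba-a2, an alpha globin, at 2.37 (SE 0.50, limma adjusted p = 0.0461). Reads of Hba-a2 may be shared with the near-identical Hba-a1. The calls of Oit3, Fcgr2b, Kdr, Colec10, Slc4a1 and Hba-a2 were each lost without any 1 of the 4 sham libraries or without Cre-negative hepatectomy replicate 2, those of Fcgr2b and Kdr also without Cre-positive hepatectomy replicate 2, and those of all but Oit3 without Cre-negative hepatectomy replicate 1. Their limma adjusted p without a library was at most 0.193. Of the erythroid genes 4 of 8 were positive for genotype after hepatectomy (median -0.04, 0 called by limma and 0 at an unadjusted p under 0.05). Lymphocyte genes summed to at most 70.1 in any library, with Cd3e, Cd3g, Ncr1 and Klrb1c listed at 0 in at least 1. Of those tested 4 of 10 were positive for genotype after hepatectomy (median -0.45, 0 called by limma and 0 at an unadjusted p under 0.05), and Cd4 and Cd79b had log2 fold changes of 0.60 and -0.77.

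Complement genes are partners of C1q and Vsig4. Of the 12 counted, 10 of 12 were positive for genotype after hepatectomy (median 0.89, 0 called by limma and 7 at an unadjusted p under 0.05). C3, whose fragments Vsig4 binds, was at 260406 and 225866 in the Cre-positive and 76917 and 139950.0 in the Cre-negative libraries after hepatectomy, against 222854 and 176163 in the Cre-positive and 195811 and 191904 in the Cre-negative libraries after sham operation. C4b, a substrate of the proteases that C1q activates, had a log2 fold change of 1.07 (SE 0.29, limma adjusted p = 0.156) for genotype after hepatectomy. Both are made mainly by hepatocytes, and both had the Cre-positive hepatectomy libraries above the Cre-negative ones. A higher signal in Cre-positive than in Cre-negative hepatectomy livers was thus also seen outside genes of Kupffer cells. The hepatectomy responses behind it are given side by side, and whether they differ between the lists was not tested. The median log2 fold change of the 12 complement genes was -0.79 in Cre-negative and 0.01 in Cre-positive livers. For the 10 Kupffer genes it was -0.12 and 0.59, and for all genes 0.21 and 0.02. The Kupffer median in Cre-negative livers depended on processing and was -0.55 with the GC trend removed. The complement list was not refitted in that way.

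Of the signals that maintain macrophages, such as Csf1, Il34 and Dll4, 9 of 15 tested were positive for genotype after hepatectomy (median 0.23, 0 called by limma and 4 at an unadjusted p under 0.05), with Csf2 and Csf3 listed at 0 in at least 1 library. The most abundant, Notch2 and Smad4, had log2 fold changes of 0.56 and 0.53. Of the genes for uptake of dying cells, the process Timd4 serves, 9 of 14 were positive (median 0.39, 0 called by limma and 4 at an unadjusted p under 0.05), and Lrp1 and Stab2 had log2 fold changes of 0.80 and 0.03. Of the genes of haemoglobin and iron clearance, in which Cd163 acts, 7 of 12 were positive (median 0.22, 0 called by limma and 4 at an unadjusted p under 0.05). Hpx, the haem carrier hemopexin, had a log2 fold change of 2.62 (SE 0.68, limma adjusted p = 0.146). Trf, transferrin, was listed at 0 in Cre-positive hepatectomy replicate 1, so no fold change is given for it. Of the hepatocyte genes 6 of 10 were positive (median 0.46, 0 called by limma and 2 at an unadjusted p under 0.05), counting Alb and Trf as listed.

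The genes most like the 10 in pattern were ranked by Pearson r with the mean centred log2 signal of the 10 over the 8 libraries, among other genes averaging 5 or more in signal. That mean profile was 0.56 and 0.55 in the Cre-positive and -0.01 and -0.43 in the Cre-negative libraries after hepatectomy, against 0.08 and -0.22 in the Cre-positive and -0.60 and 0.06 in the Cre-negative libraries after sham operation. The highest r were those of H2-M3, a nonclassical MHC molecule (0.98), Lrrc59 (0.96), Slc35b1 (0.95), Lgals3bp, a secreted galectin-3 binding protein (0.95), and Copg, a coatomer subunit (0.95). The 8 libraries share groups and an unknown depth, so these r are descriptions. Lgals3bp was at 786 and 653 in the Cre-positive and 292 and 282 in the Cre-negative libraries after hepatectomy, against 349 and 302 in the Cre-positive and 193 and 371 in the Cre-negative libraries after sham operation. Its Cre-positive hepatectomy libraries were the highest of the 8, as those of Cd5l were. Among the 10, r with the mean that each is part of was highest for C1qa, at 0.96, and lowest for Vsig4, at 0.36, and Cd163, at -0.26.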

How the data were processed

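The authors deposited normalized signal values for genes and for isoforms of the 8 libraries (scaling not given in the sources used here). Per the submitters' processing notes, the tools were TopHat and Cufflinks, without versions, with the builds mm9 and NCBIM37. The values were not whole numbers, so depth is unknown and no counting interval is given. Samples were grouped by the labelled genotype and treatment. R 4.3.3 and limma 3.58.1 fitted log2(signal + 1) with a mean for each group and one spread with a trend on level (4 residual and 3.25 prior degrees of freedom), over the 16443 genes averaging 1 or more. On this scale a fold change understates that of low genes. P-values are two-sided and adjusted by Benjamini-Hochberg, with a threshold of 0.05. The fit was tested on simulated data. Isoforms were summed to check the gene table. GC content of the longest GENCODE transcript was matched for 96.6% of genes tested, and one alternative subtracts a loess curve on GC (span 0.3) from each library. Others changed the pseudocount, filter, scaling, trend, samples in the fit, or left out a library.

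The 10 genes and the 15 other lists were chosen with earlier results of these data known. All 10 genes and Pdgfrb are named. From each list up to 3 genes past the threshold in the averaged hepatectomy comparison are named, otherwise the 2 of highest mean, and a few others only as examples of what a list holds. The 5 genes most like the 10 in pattern are also named. Irf8 was not analysed here, and 1 gene of the erythroid list is not reported here and was left out of it. Of the 20404 to 21963 genes above 0 in either replicate of a group, at most 0.0529% had exactly the same deposited value in both (tolerance 0), so none was counted as a copy.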

Additional observations from a re-analysis of the deposited data

How the results depend on the processing

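No paired analysis was possible because the labels give no replicate number that groups share. The count of 0 called among the 10 genes held in all 6 comparisons under the other pseudocounts (0.1 and 10), filters and scalings and without a trend. With the GC trend removed it was 1, Cd163, for hepatectomy averaged over genotypes. Leaving out a library gave 0 to 2 for hepatectomy in Cre-positive livers and 0 to 1 for genotype after hepatectomy. The median of the 10 genes with the GC trend removed was -0.551 for hepatectomy in Cre-negative livers, 0.00928 averaged over genotypes and 0.958 for genotype after hepatectomy. Leaving out a library moved that median between -0.429 and 0.127 for hepatectomy in Cre-negative livers, -0.114 and 0.495 for genotype in sham, 0.556 and 0.947 for genotype after hepatectomy and 0.455 and 1.04 for the difference of the responses. Median-of-ratios scaling, which takes the median of all genes to 0 for hepatectomy in Cre-negative livers, turned the sign there to -0.144 for Clec4f, -0.176 for Cd5l and -0.0227 for C1qa, and to -0.146 for Timd4 averaged over genotypes and 0.00778 for C1qb for genotype in sham. Quantile normalization gave -0.123 for Timd4 averaged over genotypes. Removing the GC trend gave -0.22 for Clec4f, -0.226 for Cd5l and -0.396 for C1qa for hepatectomy in Cre-negative livers, -0.0858 for C1qa and -0.00392 for C1qc averaged over genotypes and 0.0105 for C1qb for genotype in sham. Values that turned sign when a library was left out had these ranges. For hepatectomy in Cre-negative livers, the range was -0.214 to 0.376 for Clec4f, -0.421 to 0.52 for Cd5l, -0.0263 to 0.431 for C1qa, -0.438 to 0.0405 for C1qb and -0.275 to 0.214 for C1qc. For hepatectomy in Cre-positive livers, the range was -0.724 to 0.347 for Vsig4. For hepatectomy averaged over genotypes, the range was -0.102 to 0.122 for Timd4 and -0.311 to 0.0406 for Csf1r. For genotype in sham, the range was -0.115 to 0.475 for Clec4f, -0.425 to 0.516 for Cd5l, -0.119 to 0.557 for Vsig4, -0.406 to 0.042 for Timd4, -0.609 to 2.17 for Marco, -0.0265 to 0.431 for C1qa, -0.263 to 0.216 for C1qb, -0.0726 to 0.417 for C1qc and -0.114 to 0.525 for Csf1r. For genotype after hepatectomy, the range was -0.0669 to 1 for Vsig4, -0.0114 to 0.953 for Marco and -0.657 to 0.118 for Cd163. For the difference of the responses, the range was -0.286 to 0.785 for Vsig4 and -1.7 to 1.08 for Marco. Over the alternatives, the genes called among all tested numbered 0 to 1657 for hepatectomy in Cre-negative livers (reported fit 183), 0 to 3459 for hepatectomy in Cre-positive livers (reported fit 155), 134 to 5369 for hepatectomy averaged over genotypes (reported fit 738), 0 to 19 for genotype in sham (reported fit 1), 0 to 2142 for genotype after hepatectomy (reported fit 3) and 0 to 732 for the difference of the responses (reported fit 2). The 738 averaged over genotypes became 5369 without Cre-positive hepatectomy replicate 1, and 134 to 172 without 1 of the sham libraries. The 6 genes of other cell types called in that comparison kept their sign under all 16 alternatives, but between 5 and 10 of these ended each call. The other alternatives kept the sign and the side of the threshold of each value of the 10 genes. Depth is unknown, so what it limits cannot be given. The causes were not tested.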
